A study of Coturnix japonica with 20 samples.

Results

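The genes described here encode subunits of the mitochondrial respiratory chain and of ATP synthase that are carried in the nuclear genome. They were chosen by gene symbol, as those beginning with NDUFA, NDUFB, NDUFC, NDUFS, NDUFV, SDH, UQCR, COX4 to COX8 or ATP5, without the NDUFAF assembly factors, and with a mean of at least 1 CPM (estimated counts scaled to a common library size) over the 20 libraries. This gave 59 of 16066 genes, and all 59 passed the filter on low counts. They comprised 7 core and 27 accessory subunits of complex I, NDUFA4 and its paralog NDUFA4L2, the 4 subunits of complex II, 3 assembly factors of complex II that share the SDH prefix, and 16 subunits of ATP synthase. Of the 59, 5 formed the catalytic F1 part of ATP synthase and 11 its membrane part and stalk. No symbol of the table began with UQCR or with COX4 to COX8, so the nuclear subunits of complexes III and IV were not analysed here. The lowest member by level was NDUFA4L2, at a mean of 6.11 CPM, and no matching symbol fell under the threshold.

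The samples were left-lobe livers of 20 Japanese quail (Coturnix japonica) embryos at embryonic day 9, each profiled by RNA sequencing. Eggs had received 1 injection of 10 µl into the air cell before incubation, holding either the synthetic estrogen 17α-ethinylestradiol (EE2), 3.33 µg for each g of egg, or the solvent, dimethyl sulfoxide (DMSO), alone. The groups were 6 EE2 females, 4 EE2 males, 5 solvent females and 5 solvent males. The comparisons were EE2 against solvent within each sex, the difference between those 2 effects, and females against males within each treatment. Nothing in the sources used here says whether embryos shared a parent or how they were sexed, so the p-values cover only the spread among the embryos labelled as 1 group.

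The respiratory chain passes electrons from NADH (through complex I) and from succinate (through complex II) along to oxygen, and pumps protons across the inner mitochondrial membrane as it does so. ATP synthase lets the protons flow back through its membrane ring and uses that flow to make ATP in its F1 head. Most subunits are encoded in the nucleus and imported, while a small set of core subunits is encoded by mitochondrial DNA, so that the complexes are built from both genomes. Hepatocytes are rich in mitochondria and use their ATP for secretion, gluconeogenesis and lipid synthesis.

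Total estimated counts per library lay between 15298506 (solvent female replicate 9) and 32119466. ALB, the albumin gene of hepatocytes, had a mean of 48090 CPM in EE2 females and 146400 CPM in solvent females. Levels below are CPM on library sizes scaled by the trimmed mean of M values (TMM), a method that sets the bulk of genes to no change. The TMM factors separated the female groups, at 1.091 to 1.173 in EE2 females against 0.804 to 0.9943 in solvent females, and the 10 most abundant genes took 20.8 to 25.2% of counts in EE2 females against 24.3 to 30.1% in solvent females. With library totals alone in place of TMM, the median log2 fold change of all genes in females moved to 0.30, against 0.01 with TMM. All changes below are therefore relative to the bulk of genes. As a plain share of all counts, the 59 genes took 1.44 to 1.80% in EE2 females, 1.65 to 1.86% in EE2 males, 1.64 to 1.85% in solvent females and 1.83 to 2.23% in solvent males. One library, solvent female replicate 10, stood apart. There the median deviation of the 59 genes from their 20-library means lay 0.46 (log2) above that of all genes tested. The other solvent females had 0.03 to 0.10. Where leaving it out ended a call among the 59 genes, this is stated, but values without it are given only in part.

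In female embryos, EE2 lowered the subunit genes as a broad group. Of the 59 genes, 37 fell and 0 rose at an adjusted p under 0.05 (edgeR quasi-likelihood test, Benjamini-Hochberg over 13501 genes), while 10.1% of all genes tested fell and 10.2% rose. The log2 fold change lay below 0 for all 59 genes, against 48.1% of all genes tested. Its median was -0.40 against 0.01 over all genes, and it ran between -0.85 (NDUFB4) and -0.01 (NDUFC1). The fall was modest per gene: the fold of EE2 females over solvent females was 0.557 for NDUFB4 and 0.763 for SDHB and ATP5F1C. ATP synthase had 15 of 16 genes lower, complex I had 18 of 34 lower, complex II had 3 of 4 lower, and the complex II assembly factors had 0 of 3 lower. DESeq2 called 40 genes lower and limma voom 37, against 11.5% and 9.92% of all genes tested. Without solvent female replicate 10, 23 of the 37 remained called (against 7.74% of all genes tested), the median was -0.32 and 57 genes lay below 0. These were 1 of 5 F1 genes, 8 of 11 membrane and stalk genes and 2 of 4 complex II genes. In complex I they were 3 of 7 core and 9 of 27 accessory genes. With library totals alone, 11 of the 37 remained lower (against 4.18% of all genes), NDUFC1 was called higher (0.28, against 38.6% of all genes called higher), 45 genes lay below 0 and the median was -0.10, which was 0.40 below the median of all genes under that scaling and compares with 0.41 below it under TMM. The 26 calls lost under library totals were, in complex II, SDHB and SDHC, and also NDUFA4. In complex I they were NDUFS4, NDUFS6, NDUFS7, NDUFA2, NDUFA9, NDUFA11, NDUFA12, NDUFB5, NDUFB6, NDUFB7, NDUFB9 and NDUFB10. In ATP synthase they were ATP5F1B, ATP5F1C, ATP5F1D, ATP5MC1, ATP5MC3, ATP5ME, ATP5MG, ATP5PB, ATP5PD, ATP5PF and ATP5PO. All 59 genes lay below the all-gene median in females under either scaling. A change of scaling shifts all genes of a library alike, so it cannot test this position relative to all genes.

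**Figure D1:**
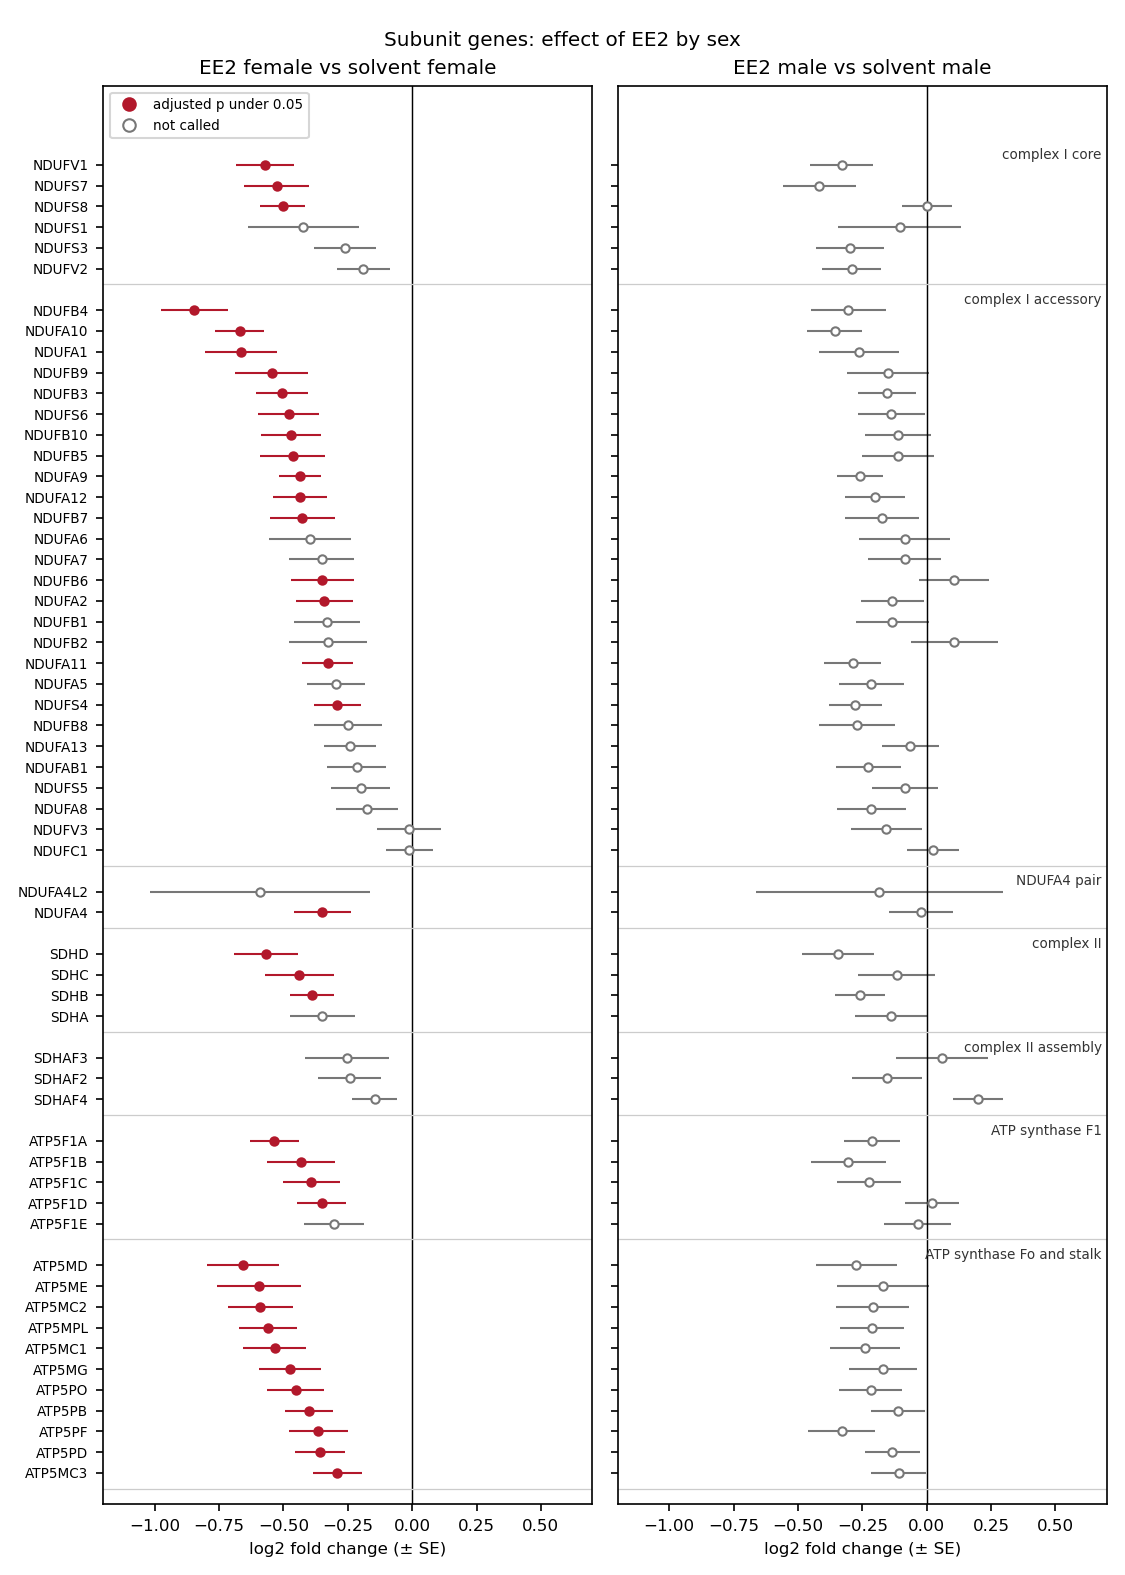
Log2 fold change (± SE) of 58 of the 59 subunit genes for EE2 females against solvent females (left) and EE2 males against solvent males (right), grouped by complex; filled red points passed an adjusted p under 0.05. In females 37 genes passed and all genes shown lay below 0, and in males 0 passed.

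The core of complex I holds the flavin and the iron-sulfur clusters that carry electrons, and 3 of its 7 genes fell in females. NDUFV1, which binds NADH and the flavin, had a lowest, median and highest level of 393, 433 and 529 CPM in EE2 females, against 637, 632, 628, 596 and 835 CPM in solvent females. Every EE2 female lay below every solvent female, and NDUFV1 fell by 0.57 (SE 0.11, adjusted p = 0.00108). NDUFS8, an iron-sulfur subunit, had a lowest, median and highest level of 111, 119 and 137 CPM in EE2 females, against 162, 165, 172, 160.0 and 203 CPM in solvent females. The groups did not overlap, and it fell by 0.50 (SE 0.09, adjusted p = 0.000415). NDUFS7, a neighbouring iron-sulfur subunit, fell by 0.53 (SE 0.13, adjusted p = 0.00565), also with no overlap. NDUFS1, which carries several of the clusters, was not called (-0.42, SE 0.22, adjusted p = 0.182): its EE2 females spread between 167 and 433 CPM around a median of 328 CPM, and its solvent females had 256, 449, 537, 391 and 553 CPM. NDUFS3 and NDUFV2 had log2 fold changes of -0.26 and -0.19 and were not called.

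The accessory subunits surround that core and are needed to assemble and hold it, and 15 of 27 fell in females. NDUFB4, a subunit of the membrane arm, had a lowest, median and highest level of 120.3, 127 and 157 CPM in EE2 females, against 219.8, 246, 240.4, 197 and 305 CPM in solvent females. This was the largest fall among the 59 genes (-0.85, SE 0.13, adjusted p = 0.000147). NDUFA10 had a lowest, median and highest level of 329.9, 363 and 398 CPM in EE2 females, against 540.3, 549.8, 611, 529 and 669 CPM in solvent females, and it fell by 0.67 (SE 0.10, adjusted p = 6.66e-05). In both genes a wide gap separated the highest EE2 female from the lowest solvent female.

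NDUFA1, a small membrane subunit, had a lowest, median and highest level of 30.8, 32.4 and 38.5 CPM in EE2 females, against 42.1, 47.2, 47.9, 52.4 and 79.5 CPM in solvent females. The groups did not overlap, although solvent female replicate 10 carried the 79.5 CPM, and NDUFA1 fell by 0.66 (SE 0.14, adjusted p = 0.00206). NDUFB9 fell by 0.55, NDUFB3 by 0.50 and NDUFS6, a zinc-binding subunit, by 0.48. NDUFA9, which binds a nucleotide cofactor and sits at the junction of the 2 arms, fell by 0.44 with a small error (SE 0.08, adjusted p = 0.000677). The remaining called genes were NDUFB10, NDUFB5, NDUFA12, NDUFB7, NDUFB6, NDUFA2, NDUFA11 and NDUFS4, with log2 fold changes of -0.47 to -0.29. At the other end, NDUFC1 had a lowest, median and highest level of 93.8, 99.7 and 108 CPM in EE2 females, against 104, 93.6, 97.9, 93.4 and 118 CPM in solvent females. These ranges overlapped almost fully (-0.01, SE 0.09, adjusted p = 0.952). NDUFV3 likewise gave -0.01 (SE 0.12), and NDUFAB1, the mitochondrial acyl carrier protein, gave -0.21 and was not called (adjusted p = 0.204).

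NDUFA4 was first described in complex I and is now counted, in mammals, with cytochrome c oxidase. It averaged 250.3 ± 14.7 CPM in EE2 females and 319 ± 58.8 CPM in solvent females (SD, n = 6 and 5), and fell by 0.35 (SE 0.11, adjusted p = 0.0301), a call lost without solvent female replicate 10. Its paralog NDUFA4L2, known in mammals as induced by low oxygen, was the most variable of the 59 genes in each of the 4 groups, with a coefficient of variation of 38.7% in EE2 females and 54.6% in solvent females. It was not called (-0.59, SE 0.43, adjusted p = 0.369), and its levels of 2.62 to 8.86 CPM in EE2 females overlapped the 3.09 to 12.5 CPM of solvent females.

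Complex II is succinate dehydrogenase, which also serves as an enzyme of the citric acid cycle. SDHD, a membrane anchor, had a lowest, median and highest level of 108, 129 and 148 CPM in EE2 females, against 182, 169, 172, 191 and 237 CPM in solvent females. The groups did not overlap (-0.57, SE 0.12, adjusted p = 0.00289). The other anchor, SDHC, fell by 0.44 (SE 0.13, adjusted p = 0.0243), and the iron-sulfur subunit SDHB fell by 0.39 (SE 0.09, adjusted p = 0.00317), again without overlap between the groups. SDHA, the flavoprotein that oxidises succinate, had a lowest, median and highest level of 225, 279 and 306 CPM in EE2 females, against 385, 283, 353, 301 and 424 CPM in solvent females. Its groups overlapped and it just missed the threshold (-0.35, SE 0.13, adjusted p = 0.0594). Without solvent female replicate 10 the SDHC call was lost. The assembly factors SDHAF2, SDHAF3 and SDHAF4, which in yeast and human cells help complex II to assemble, gave -0.24, -0.25 and -0.15 and were not called.

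ATP synthase was the complex with the largest share of genes called. ATP5F1A, the alpha subunit of the F1 head, had a lowest, median and highest level of 1187, 1219 and 1359 CPM in EE2 females, against 1642, 1771, 1867, 1646 and 2170 CPM in solvent females. No values overlapped (-0.53, SE 0.10, adjusted p = 0.000604). ATP5F1B, the catalytic beta subunit, fell by 0.43 (SE 0.13, adjusted p = 0.0249), ATP5F1C (gamma) by 0.39 and ATP5F1D (delta) by 0.35, but these 3 calls were lost without solvent female replicate 10. ATP5F1E (epsilon) gave -0.30 and was not called (adjusted p = 0.0744).

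All 11 genes of the membrane part and stalk fell. ATP5MD, which in mammals stabilises dimers of the enzyme, had a lowest, median and highest level of 139, 167 and 193 CPM in EE2 females, against 227, 244, 252, 217 and 356 CPM in solvent females. The groups did not overlap (-0.66, SE 0.14, adjusted p = 0.00222). ATP5ME, subunit e, fell by 0.59 (SE 0.16, adjusted p = 0.0131), with EE2 females at 94.9 to 132 CPM and solvent females at 119 to 243 CPM, so that the ranges overlapped. ATP5MPL, a small proteolipid, fell by 0.56 (SE 0.11, adjusted p = 0.00140). ATP5MG (subunit g), ATP5PO (the stalk protein that makes the enzyme sensitive to oligomycin), ATP5PB, ATP5PF and ATP5PD fell by 0.47, 0.45, 0.40, 0.36 and 0.36.

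The proton-carrying ring of ATP synthase is made of copies of subunit c, which 3 genes encode as near-identical mature proteins. ATP5MC1 fell by 0.53 (SE 0.12, adjusted p = 0.00381). ATP5MC2 had a lowest, median and highest level of 52.0, 59.0 and 64.3 CPM in EE2 females, against 88.5, 75.4, 105, 76.0 and 94.8 CPM in solvent females, and fell by 0.59 (SE 0.13, adjusted p = 0.00241). ATP5MC3 fell by 0.29 (SE 0.09, adjusted p = 0.0352), with all EE2 females just below all solvent females, a call lost without solvent female replicate 10. The estimated counts assign shared reads in fractions, and how far the 3 genes share reads was not tested. Without that library, the calls of ATP5ME, ATP5PF, NDUFS4, NDUFB7, NDUFB5, NDUFA2, NDUFB6 and NDUFA11 were lost as well. The 23 genes called without it were called in each of the 20 fits that left out 1 library. The fits without a male library kept every female library, so they test the female calls little.

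In 25 of the 59 genes every EE2 female lay below every solvent female in TMM-scaled CPM, against 6.08% of all genes tested. These were 8 of the 11 membrane and stalk genes, 2 of the 5 F1 genes, 3 core and 9 accessory genes of complex I, and SDHB, SDHC and SDHD. The TMM factors themselves separated the female groups, and overlap on library totals alone was not counted. Seen by library, most of the 59 genes lay below their 20-library means in every EE2 female. Whether the genes varied together within groups was not tested. EE2 females had 41 to 58 of the 59 genes below the 20-library mean of the gene, EE2 males 5 to 51, solvent females 1 to 26 and solvent males 1 to 42. The same count over all genes was not made. Relative to all genes tested, the median deviation of the 59 genes was -0.40 to -0.08 in EE2 females and -0.13 to 0.14 in EE2 males. It was 0.03 to 0.46 in solvent females and -0.09 to 0.37 in solvent males (log2). EE2 female replicate 8 was the EE2 female nearest to the solvent females, with a median deviation of -0.08 relative to all genes tested. EE2 female replicate 7 was the lowest of all libraries, at -0.40 (log2). The summed level of the 59 genes was 13970 ± 1340 CPM in EE2 females and 18830 ± 2410 CPM in solvent females (SD, n = 6 and 5). It was 18420 ± 2250 CPM in EE2 males and 21320 ± 2670 CPM in solvent males (SD, n = 4 and 5). The genes with the highest CPM weigh most in these sums and in the shares of counts above. ATP5F1A, on the Z chromosome, averaged 1819 ± 217.5 CPM in solvent females and 3539 ± 351 CPM in solvent males (SD, n = 5 each). ATP5F1B averaged 3948 ± 592.7 CPM and 4312 ± 758.3 CPM in the same groups. Within groups, the median coefficient of variation of the 59 genes was 12% in EE2 females, 10.6% in EE2 males, 14.4% in solvent females and 15.1% in solvent males.

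**Figure D2:**
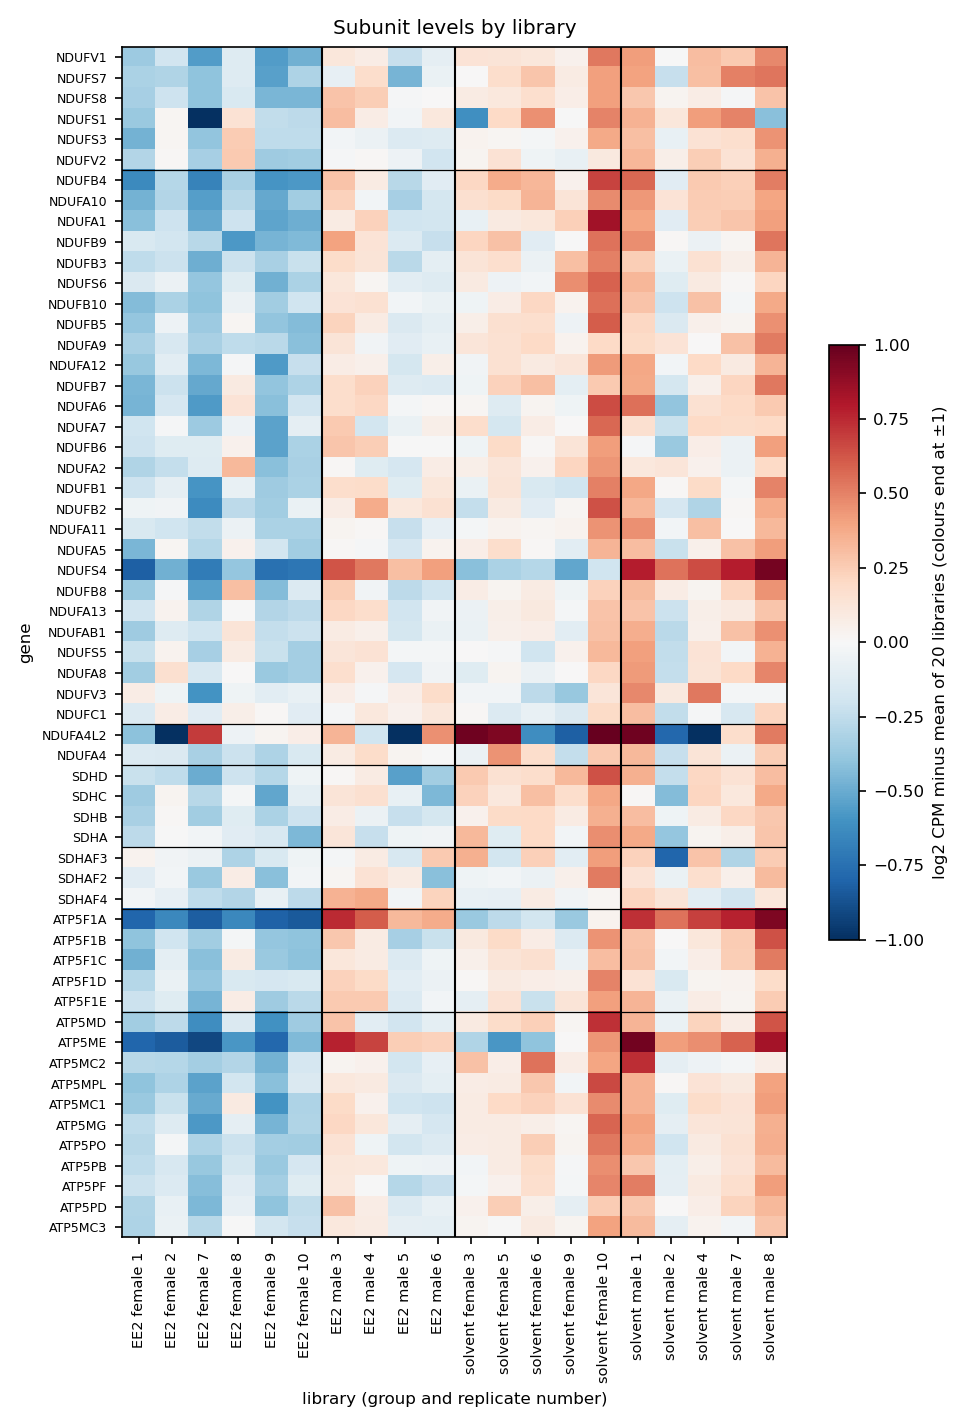
Level of 58 of the 59 subunit genes in each library as log2 CPM minus the gene's mean over 20 libraries (colours end at ±1), with vertical lines between the 4 groups and horizontal lines between complexes. Blue fills most of the EE2 female columns, solvent female replicate 10 is the reddest solvent female column, and NDUFS4 and ATP5F1A separate females from males. ATP5ME does so except for solvent female replicate 10, which lies above EE2 male replicates 5 and 6 and solvent male replicate 2.

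**Figure D3:**
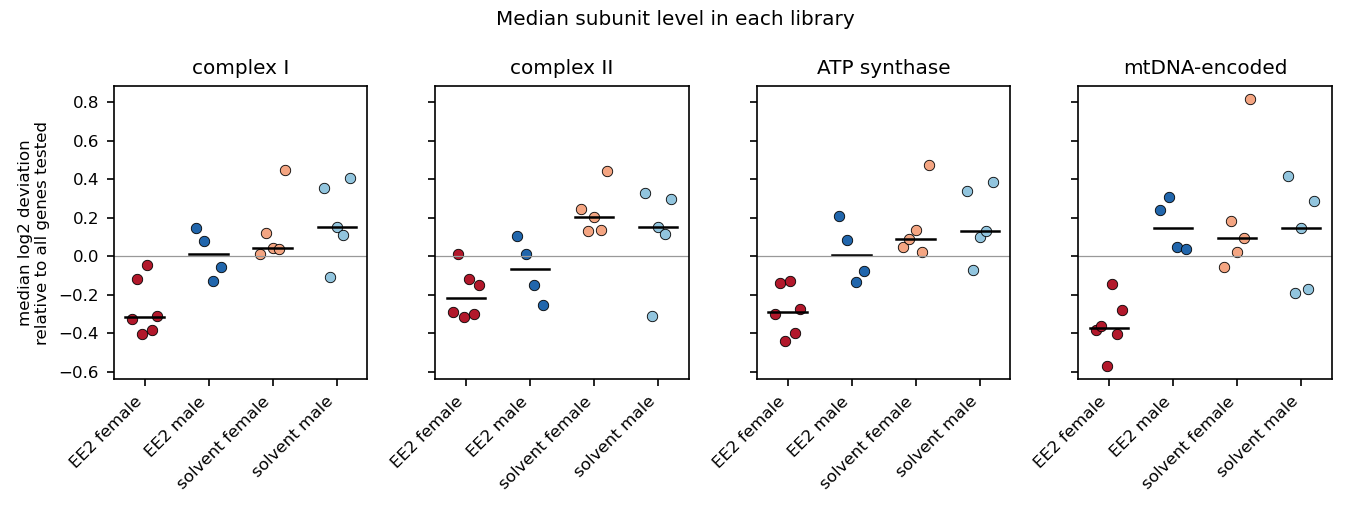
Median deviation of complex I, complex II, ATP synthase and mtDNA-encoded genes in each library, in log2 units relative to all genes tested; bars are group medians. EE2 females have the lowest group median in all 4 panels, and solvent female replicate 10 lies above the other solvent females in each.

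In male embryos 0 of the 59 genes were called in either direction by edgeR, against 3.27% of all genes tested. The lowest adjusted p was 0.0804 (NDUFA10), and 11 genes had an unadjusted p under 0.05. How many of all genes tested passed that unadjusted threshold was not counted. DESeq2 called 1 gene (NDUFA10, -0.35) and limma voom 0. Of the 59 genes, 52 log2 fold changes lay below 0, against 51.3% of all genes tested. Over the 59 genes the median was -0.17, against -0.01 over all genes, with a range of -0.42 (NDUFS7) to 0.20 (SDHAF4). Leaving out 1 library at a time moved this median between -0.24 and -0.13. When library totals replaced TMM, 7 genes were called lower in males, against 1.51% of all genes under that scaling. These were NDUFA10, NDUFV1, NDUFS7, NDUFS4, NDUFA11, SDHB and ATP5PF.

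NDUFA10 had 567, 474, 383 and 428 CPM in EE2 males, against 652, 529.5, 576, 574 and 634 CPM in solvent males. EE2 male replicate 3 carried the 567 CPM and overlapped the solvent males, while the other 3 EE2 males lay below all of them (-0.36, SE 0.11). Without that replicate NDUFA10 was called lower (-0.47, adjusted p = 0.0121). NDUFS7 had 145, 173, 111 and 147 CPM in EE2 males, against 202, 130.4, 189, 217 and 222 CPM in solvent males. Its ranges overlapped through solvent male replicate 2 at 130.4 CPM (-0.42, SE 0.14, adjusted p = 0.121), and it was called without that library (-0.53, adjusted p = 0.0182).

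SDHAF4 had 22.4, 22.8, 17.2 and 20.5 CPM in EE2 males, against 20.4, 19.2, 16.3, 15.4 and 19.0 CPM in solvent males. The ranges overlapped (0.20, SE 0.10, adjusted p = 0.309). In 1 of the 59 genes, NDUFV2, every EE2 male lay below every solvent male, against 2.59% of all genes tested. The complex II genes SDHA, SDHB, SDHC and SDHD gave -0.14, -0.26, -0.12 and -0.35 in males. The subunit c genes ATP5MC1, ATP5MC2 and ATP5MC3 gave -0.24, -0.21 and -0.11. The Z chromosome genes NDUFS4, ATP5F1A and ATP5ME gave -0.28, -0.21 and -0.17.

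Whether the EE2 effect differed between the sexes was tested directly as the female effect minus the male effect. None of the 59 genes was called by edgeR (0 of 59, against 1.06% of all genes tested). Of the 59 genes, 9 had an unadjusted p under 0.05, a threshold for which no share of all genes was counted. The lowest adjusted p was 0.0700, for NDUFS8. Its levels were 187, 181, 152 and 153 CPM in EE2 males and 184, 156, 161, 152 and 186 CPM in solvent males, so that the male log2 fold change was 0.00, while the female one was -0.50 and the difference -0.50 (SE 0.13). DESeq2 called this gene and no other of the 59 (-0.51, adjusted p = 0.0110), and limma voom called 0. Leaving out EE2 male replicate 5 brought in NDUFS8 (-0.55), and leaving out solvent male replicate 1 brought in ATP5MC2 (-0.57). NDUFB4 had the largest difference, -0.54 (SE 0.20, adjusted p = 0.199). The highest value was that of NDUFV3, at 0.14 (SE 0.19, adjusted p = 0.790). Some genes called only in females had log2 fold changes of similar size in both sexes. NDUFS4 gave -0.29 in females and -0.28 in males, ATP5PF -0.36 and -0.33, and NDUFA11 -0.33 and -0.29.

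The difference lay below 0 for 53 of 59 genes, against 48.1% of all genes tested. Over the 59 genes its median was -0.25. Leaving out 1 library at a time moved this median between -0.31 (without EE2 male replicate 5) and -0.16 (without solvent female replicate 10), and it was -0.11 when EE2 male replicate 3 was left out together with solvent female replicate 10. Under library totals this median turned positive (0.08, against 0.34 for all genes), 17 genes lay below 0, and NDUFV2 was called higher (0.43, against 16.6% of all genes). The female and male fold changes therefore differed in how many genes passed, but no single gene was shown by the edgeR test to respond differently in the sexes.

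Birds have ZZ males and ZW females, and their Z genes are compensated in part, so that many are lower in females. Of the 59 genes, 3 lie on Z in the gene table, NDUFS4, ATP5F1A and ATP5ME, and in solvent embryos these 3 and no others were lower in females (3 of 59, against 1.41% of all genes tested). Among the 604 tested Z genes, 29.5% were lower in solvent females, with a median of -0.41. NDUFS4, an accessory subunit added late in complex I assembly, had 60.3, 64.6, 66.1, 56.1 and 70.1 CPM in solvent females, against 139, 117, 126, 139 and 156 CPM in solvent males. No values overlapped (-1.09, SE 0.10, adjusted p = 4.81e-07). ATP5F1A, at 1642 to 2170 CPM in solvent females and 3087 to 4055 CPM in solvent males, gave -0.96 (SE 0.10, adjusted p = 3.61e-06).

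ATP5ME had 145, 119, 135, 179 and 243 CPM in solvent females, against 349, 239, 246, 269 and 318 CPM in solvent males. Solvent female replicate 10, at 243 CPM, overlapped the lowest solvent male (-0.79, SE 0.17, adjusted p = 0.0134). The call was lost when solvent female replicate 6 or solvent male replicate 1 was left out, and when the solvent groups were fitted by themselves. The 56 genes not on Z had a median of -0.02 between the sexes in solvent embryos, and 0 were called, with 1 at an unadjusted p under 0.05, 0 called by DESeq2 and 0 by limma voom. The highest log2 fold change of the 59 genes was 0.41, for NDUFA4L2 (SE 0.45, adjusted p = 0.866). Over all 59 genes the median of -0.03, with 33 genes below 0 (against 50.4% of all genes tested), moved with single libraries. It was -0.11, with 48 genes below 0, without solvent female replicate 10, and 0.01 and 0.02 without solvent male replicates 1 and 8. In chicken, a copy of ATP5F1A is also carried on W. No gene of the table used here was placed on W, and whether W reads were counted under ATP5F1A was not tested.

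**Figure D4:**
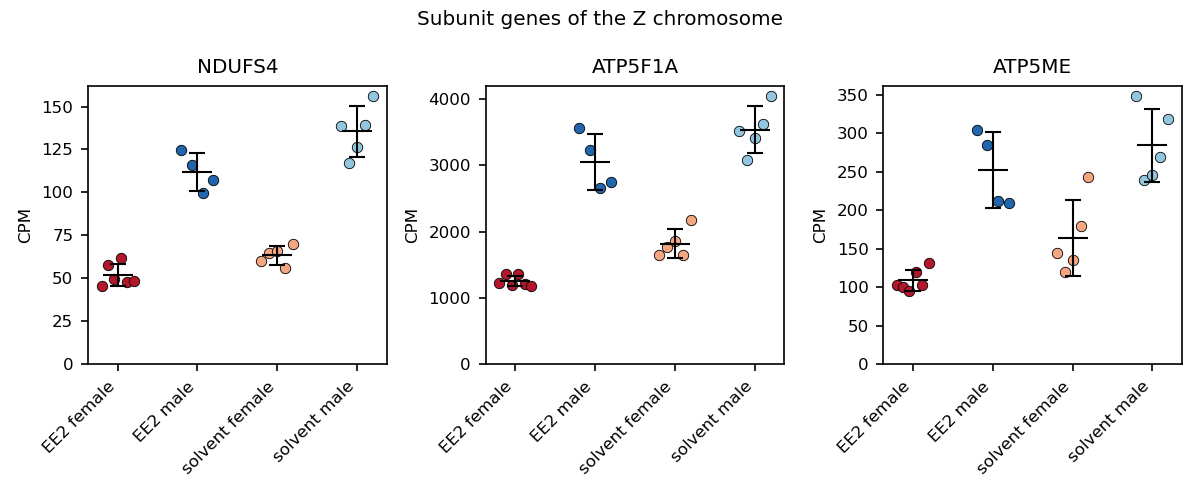
CPM of NDUFS4, ATP5F1A and ATP5ME in each library by group, with the mean and SD. Every EE2 female lies below every male in all 3 genes, and solvent females lie below solvent males except for ATP5ME in solvent female replicate 10 (243 CPM).

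In EE2 embryos 7 of the 59 genes were lower in females than in males and 0 higher, against 4.25% of all genes tested lower. The 3 Z genes were again among them: ATP5F1A gave -1.28 (SE 0.10, adjusted p = 1.26e-07), ATP5ME -1.21 (SE 0.17, adjusted p = 0.000115) and NDUFS4 -1.11 (SE 0.10, adjusted p = 3.22e-07). Among Z genes in all, 38.9% were lower in EE2 females, with a median of -0.43. The other 4 were NDUFB4 (-0.51, SE 0.14, adjusted p = 0.0316), NDUFS8 (-0.47, SE 0.09, adjusted p = 0.00409), SDHAF4 (-0.40, SE 0.09, adjusted p = 0.0131) and NDUFA10 (-0.35, SE 0.10, adjusted p = 0.0477). The median over all 59 genes was -0.27 and 58 lay below 0, against 48.9% of all genes tested. The single exception, NDUFA4L2, lay at 0.01 and turned negative under DESeq2 scaling.

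SDHAF4 ranged between 14.3 and 17.2 CPM in EE2 females, against 22.4, 22.8, 17.2 and 20.5 CPM in EE2 males. The highest EE2 female and the lowest EE2 male were almost level. Without EE2 male replicate 3, or without replicate 4, 4 of the 59 genes were called, since SDHAF4, NDUFA10 and NDUFB4 dropped out. The shares of all genes lower in females were then 2.57% and 3.19%. NDUFB4 was also lost without EE2 female replicate 1, 7, 9 or 10. NDUFA10 was lost with limma voom, without the filter on low counts, with the EE2 groups fitted by themselves, and without most of the single libraries. Under library totals the same 3 genes dropped out, and the median was -0.02, against 0.25 for all genes. Other settings added calls. DESeq2 called 10 of the 59 genes lower, against 5.85% of all genes, and added NDUFV1, NDUFA9 and ATP5PD. With the EE2 groups fitted by themselves, NDUFA4 was added. Without solvent female replicate 10, NDUFA1 and ATP5MPL were added, and without solvent male replicate 8, NDUFA9.

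The mtDNA-encoded partners of these subunits fell in EE2 females as well. Of the 13 genes, 12 fell and 0 rose, against 10.1% and 10.2% of all genes tested. The median was -0.63, with a range of -0.78 (ATP8) to -0.43 (ND1), and ND6 was not called (-0.52, adjusted p = 0.142). COX1, the catalytic subunit of cytochrome c oxidase, averaged 17600 ± 2080 CPM in EE2 females and 25600 ± 6430 CPM in solvent females (SD, n = 6 and 5), and fell by 0.54 (SE 0.15, adjusted p = 0.0118). CYTB of complex III fell by 0.68, ATP6 of ATP synthase by 0.63 and ND5 of complex I by 0.72. The summed mtDNA-encoded level was 44780 to 61010 CPM in EE2 females, 69180 to 83530 CPM in EE2 males, 62490 to 112300 CPM in solvent females and 58950 to 90410 CPM in solvent males. The 112300 CPM belonged to solvent female replicate 10. Without it 10 of 13 genes fell (against 7.74% of all genes) and the median was -0.42. With library totals alone 6 of 13 fell (against 4.18% of all genes, median -0.32). In males 0 of 13 were called, against 3.27% of all genes tested, with a median of 0.06 and 0 at an unadjusted p under 0.05 (edgeR). The female EE2 effect minus the male effect had a median of -0.68, and 0 of 13 were called, against 1.06% of all genes. There, 12 of 13 had an unadjusted p under 0.05 (edgeR), a threshold for which no share of all genes was counted. Between females and males of the EE2 embryos, 5 of 13 genes were lower in females, against 4.25% of all genes. These were ND1, ND2, ND4, ND5 and COX3, and the median over the 13 genes was -0.535.

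Among 22 assembly factors of the chain, which include the 3 of complex II counted above, LYRM2 and NDUFAF6 fell in females and 0 rose, a share near the 10.1% of all genes that fell, and neither call held without solvent female replicate 10. Among 73 mitochondrial ribosomal proteins 13 fell and 1 rose (MRPS30, 0.26), against 10.1% and 10.2% of all genes tested, with a median of -0.08. Without that library 5 of the 73 fell, against 7.74% of all genes tested. Under library totals, where 38.6% of all genes were called higher and 4.18% lower, 0 of the 73 ribosomal genes fell and 31 rose, and 0 assembly factors fell and 7 rose. Relative to the all-gene median, the median of the ribosomal list was -0.10 under either scaling, a distance that a change of scaling leaves nearly fixed. In males MRPL48 was the only ribosomal protein called (-0.32, adjusted p = 0.0389), against 1.03% of all genes lower.

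Among the enzymes that feed the chain, ETFDH, which passes electrons from fatty acid oxidation to ubiquinone, averaged 113 ± 9.59 CPM in EE2 females and 216 ± 44.7 CPM in solvent females (SD, n = 6 and 5), and fell by 0.94. ETFA, its electron donor, fell by 0.70, and the sulfide oxidase SQOR by 0.55, so that 3 of 5 genes of that list fell. In the citric acid cycle 5 of 16 genes fell (OGDH, DLD, SUCLG2, FH and PDHB, at -0.69 to -0.34) and SUCLA2, another succinyl-CoA ligase gene, rose by 0.89. Of 9 carriers and pores, the pyruvate carrier genes MPC1 and MPC2 fell by 0.72 and 0.82, and the outer membrane pore VDAC1 fell by 0.70. MPC2 was also called for the female EE2 effect minus the male effect (-0.79, adjusted p = 0.0232). For these lists, the shares over all genes tested in females were 10.1% lower and 10.2% higher. In males 0 genes of these lists were called, against 3.27% of all genes tested. The citric acid cycle median was -0.21 in females and -0.22 in males, and that of carriers and pores -0.22 and -0.28. The female effect minus the male effect had medians of 0.02 and 0.15 for these lists. For electron entry the medians were -0.55 in females, -0.23 in males and -0.31 for the difference. Without solvent female replicate 10, 2 of the 9 carriers and 4 of the 16 citric acid cycle genes fell, against 7.74% of all genes. Under library totals 4.18% of all genes fell and 38.6% rose. There, 2 of 5 electron entry genes fell, 2 citric acid cycle genes fell and 3 rose, and 2 carriers fell and 3 rose.

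Of 17 regulators of mitochondrial biogenesis, 4 fell in females and 1 rose, against 10.1% and 10.2% of all genes tested. PPARA, a nuclear receptor that drives fatty acid oxidation genes, averaged 30.3 ± 3.97 CPM in EE2 females and 57.2 ± 11.2 CPM in solvent females (SD, n = 6 and 5), with a log2 fold change of -0.92. ESRRG, an orphan receptor that binds respiratory chain promoters in mammals, fell by 0.90 in females and by 0.52 in males (adjusted p = 0.0206). PPARGC1A, the coactivator of these receptors, fell by 0.72 in females and gave -0.84 in males (adjusted p = 0.0508). TFAM, which packages and transcribes mtDNA, fell by 0.26, and PPRC1, a relative of PPARGC1A, rose by 0.68. Without solvent female replicate 10, 3 of the 17 fell, against 7.74% of all genes. Under library totals 2 regulators fell and 4 rose, against 4.18% of all genes lower and 38.6% higher.

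**Figure D5:**
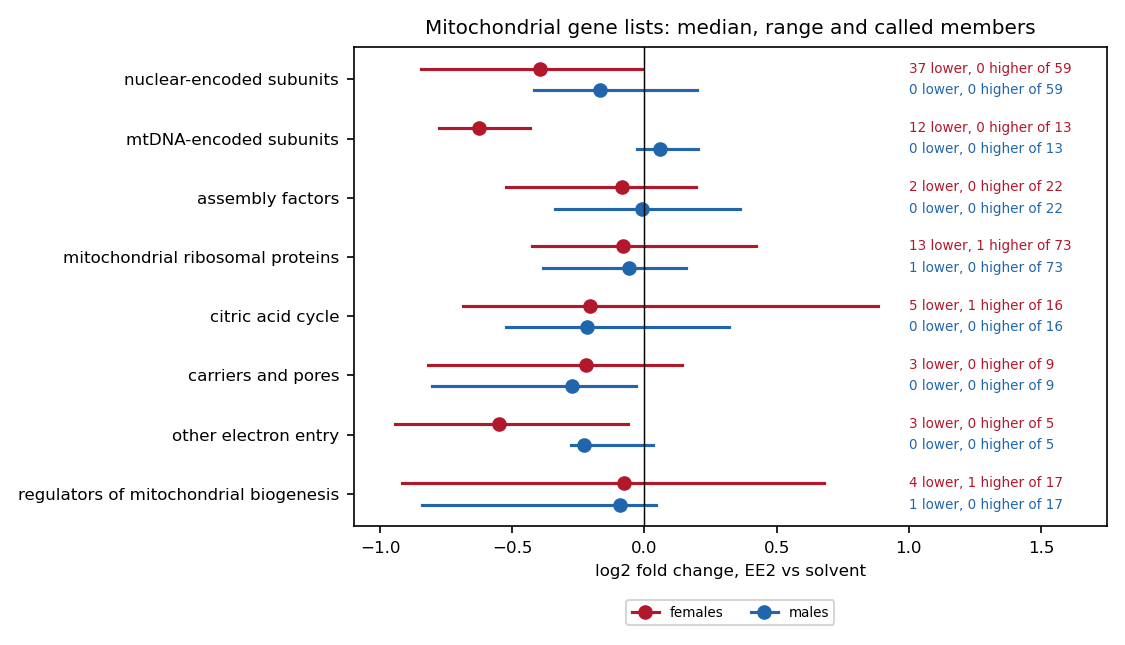
Median (point) and range (line) of the log2 fold change of EE2 against solvent for 8 lists of mitochondrial genes, females in red and males in blue, with the number of genes called lower and higher at the right. In females the mtDNA-encoded list has 12 of 13 genes lower and the nuclear-encoded subunits 37 of 59, and in males both have 0.

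Marker lists of liver cell types and of striated muscle were also examined, and several held genes called for EE2 in the same libraries. Over all genes tested, 10.1% fell and 10.2% rose in EE2 females, and 1.03% fell and 2.24% rose in EE2 males. Of 8 hepatocyte markers tested, 6 fell in EE2 females (ALB, APOA1, FGB, AMBP, SERPINC1 and TF) and APOB rose. Their summed level was 82610 to 146800 CPM in EE2 females, 154600 to 244000 CPM in EE2 males, 185600 to 287300 CPM in solvent females and 136100 to 212200 CPM in solvent males. In EE2 males APOA1 and FGB were called lower and APOB higher. The 5 erythroid markers tested summed to 157.5 to 471.1 CPM in EE2 females, 246.1 to 282.8 CPM in EE2 males, 274.2 to 454.4 CPM in solvent females and 196.8 to 334.5 CPM in solvent males, with SPTB called lower in EE2 females, a call lost without solvent female replicate 10. Striated muscle is rich in the same subunits. Its 13 tested markers summed to 59.5 to 94.1 CPM in EE2 females, 64.5 to 389 CPM in EE2 males, 88.7 to 135 CPM in solvent females and 68.8 to 106 CPM in solvent males, with TNNC1 and SRL called lower in EE2 females. Only 3 of these 13 markers had a log2 fold change below 0 in females, with a median of 0.25 and a range of -3.215 to 3.796. EE2 male replicate 5 carried the 389 CPM, and TNNT2, MYL2 and CASQ2 were called higher in EE2 males. The heart and muscle myosin gene MYL2 averaged 0.51 CPM in EE2 females, 12.5 CPM in EE2 males, 0.03 CPM in solvent females and 0.20 CPM in solvent males. The spread around these means is not given here. The summed muscle markers of EE2 male replicates 3, 4, 5 and 6 were 83.0, 151.3, 389.2 and 64.5 CPM. The 5 cholangiocyte markers summed to 121.1 to 240.5 CPM in EE2 females and 144.5 to 176 CPM in solvent females, with SOX9 and SPP1 called higher and EPCAM lower. The 10 mesenchymal markers summed to 2372 to 4472 CPM in EE2 females and 1965 to 3151 CPM in solvent females, with DCN and ACTA2 called higher and RELN lower. Both higher calls were lost without solvent female replicate 10. In EE2 females 0 of 8 macrophage and 0 of 8 endothelial markers were called. The part of these cell types in the subunit results was not tested, and in bulk tissue fewer cells of a type and less RNA per cell cannot be told apart.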

How the data were processed

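RNA sequencing was done on left-lobe liver of 20 quail embryos. The authors deposited estimated counts per coding sequence, in fractions, which per the submitters' processing notes came from kallisto (52.64% of values were whole numbers). The version, transcript set and genome build are not given in the sources used here, so no coordinates are printed. Estimated counts were summed per gene and rounded, giving 16066 genes. Symbols and Z membership come from NCBI's gene table of the assembly Coturnix japonica 2.1. A second deposited table with other identifiers served as an alternative (40894 of 40934 entries matched).

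The edgeR filter filterByExpr (minimum count 10, minimum total 15) removed 2565 genes. All 20 libraries entered 1 fit with a mean per group in edgeR 4.0.16 (R 4.3.3; TMM scaling, robust quasi-likelihood F test, two-sided, Benjamini-Hochberg, adjusted p under 0.05), tested on simulated data. SE is the log2 fold change divided by the root of F. DESeq2 1.42.0, limma 3.58.1 (voom), other scalings and filters, single groups, a replicate block and leaving out libraries were alternatives. Library totals alone, the joint omission of 2 libraries, and all alternatives for the pathway lists were chosen after seeing the data. No 2 libraries of a group were alike (lowest chi-square per gene 30.13), so none were merged.

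Members and lists were chosen with earlier results of these data known. In each comparison up to 10 called members per direction with the largest change were named, besides Z members, SDHA to SDHD, the subunit c genes and the extremes. Other members were named after their values were seen, and 1 member is counted but not reported by itself here. Coding lengths were not used here, so levels are not compared between genes, and no sequences are printed.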

Additional observations from a re-analysis of the deposited data

Results flagged for a closer look

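Among the 23 named members and 6 summed or median measures, 116 groups of 4 to 6 libraries were examined for a single library far from the rest, and 10 values were found, where chance gives about 1 in 20. Of these, 8 belonged to solvent female replicate 10. In that library NDUFA1 was at 79.5 CPM (other solvent females 42.1 to 52.4), ATP5MD at 356 CPM (217 to 252), NDUFV1 at 835 CPM (596 to 637), NDUFS8 at 203 CPM (160.0 to 172) and ATP5MC3 at 1118 CPM (845 to 904). Its summed level was 22960 CPM over the 59 genes (16830 to 18500) and 7687 CPM over complex I (5672 to 6150). The median deviation of the 59 genes relative to all genes tested was 0.46 in this library (0.03 to 0.10, log2). It also had the lowest TMM factor of all libraries (0.804) and the highest share of mtDNA-encoded counts (9.03%). Solvent male replicate 1 had ATP5MC2 at 120.1 CPM (other solvent males 67.8 to 75.7), and EE2 female replicate 7 had NDUFV3 at 32.6 CPM (other EE2 females 45.9 to 51.9).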

How the results depend on the processing

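Members called in EE2 females numbered 36 to 40 under the other scalings, filters, tools, table and choice of groups. Under these settings 8.17 to 11.5% of all genes tested were lower in EE2 females. The replicate block left 22 in EE2 females, 3 for sex in EE2 embryos and 1 for sex in solvent embryos. Of all genes tested, it called 3.72%, 0.689% and 0.326% lower, in that order. It left 0 members for EE2 in males, against 0.037% of all genes lower and 0.348% higher. For the difference it called 0 members and 0 of all genes. The labels do not say that numbers pair embryos, and same-numbered libraries correlated at -0.02 to 0.12. Under the replicate block the members' median was -0.54 for EE2 in females, -0.03 for EE2 in males, -0.53 for the difference, 0.11 for sex in solvent embryos and -0.41 for sex in EE2 embryos. DESeq2 gave 1 in males and 1 for the difference, against 2.12% and 2.25% of all genes lower. It gave 10 for sex in EE2 embryos, against 5.85% of all genes lower. Library totals alone gave 12 in females (11 lower), 7 in males, 1 for the difference and 4 for sex in EE2 embryos. Of all genes, that scaling called 4.18% lower and 38.6% higher in females, and 1.51% lower in males. It called 16.6% higher for the difference and 2.45% lower for sex in EE2 embryos. Leaving out both solvent female replicate 10 and EE2 male replicate 3 gave 1 in males and 4 for sex in EE2 embryos. The shares of all genes lower were then 1.97% and 2.84%. Leaving out 1 library at a time gave 23 to 43 in females, 0 to 1 in males, 0 to 1 for the difference, 2 to 3 for sex in solvent embryos and 4 to 9 for sex in EE2 embryos. The shares of all genes lower in these fits were 7.74 to 10.6%, 0.39 to 1.88%, 0.125 to 1.05%, 1.22 to 1.43% and 2.57 to 4.55%, in that order. The cause was not tested in any of these.

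The direction of 7 named values reversed somewhere. With library totals alone, ATP5MC3 gave 0.003888 and NDUFS4 0.0002933 in females. NDUFC1 in females gave 0.017 with upper-quartile scaling, 0.28 with library totals and 0.0497 without the 2 libraries together, and -0.0377 to 0.0499 without 1 library. With the replicate block, ATP5MC3, ATP5ME and SDHC gave 0.0571, 0.21 and 0.00856 in males. NDUFA4L2 for sex in EE2 embryos gave -0.0005675 with DESeq2 scaling, -0.0001181 with DESeq2, -0.32 with the replicate block, and -0.25 to 0.21 without 1 library. Of all named values under alternatives, 1264 kept direction and side of the threshold, 70 lost the call and 8 gained it.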

Other observations

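Below the gene level, the deposited estimates of several members were shared out between coding sequences in different ways from library to library. The 3 described here are SDHAF2, NDUFB3 and NDUFA5. NDUFV3 also varied, with its second coding sequence at 5.26 CPM in solvent female replicate 6 and 29.64 CPM in solvent male replicate 1. SDHAF2 has 3 coding sequences in the files. Its second coding sequence carried 81.9, 93.2 and 87.1 CPM in EE2 female replicates 1, 8 and 10 and 84.7 CPM in solvent male replicate 2, while the first carried at most 0.25 CPM there. In EE2 female replicate 2 both carried 43.5 CPM. In the other 15 libraries the first coding sequence carried 60.3 to 113.3 CPM and the second 1.53 to 13.7 CPM.

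NDUFB3 showed a similar split between its first coding sequence and 4 others that hold equal values. The first carried 67.9 to 89.05 CPM in EE2 male replicates 3 and 4, solvent female replicates 3, 5 and 9 and solvent male replicate 8, and 5.84 to 12.7 CPM in the other 14 libraries. In NDUFA5 the second coding sequence carried 21.2 to 35.4 CPM in 6 libraries and at most 0.25 CPM in the other 14. These 6 were EE2 female replicates 7 and 9, EE2 male replicate 3 and solvent female replicates 5, 9 and 10. Each of these sets held libraries of more than 1 group, and the cause was not tested.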
